A study of Mus musculus with 8 samples.

Results

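Major urinary proteins (MUPs) are encoded by a cluster of Mup genes on mouse chromosome 4, and the 10 members described here are Mup1, Mup2, Mup3, Mup7, Mup10, Mup11, Mup17, Mup19, Mup20 and Mup21. They were chosen by gene symbol from the 11784 genes of the deposited liver table, which lists 19 Mup symbols in all. The livers came from male C57BL/6J mice that received amino acid defined diets from 9 weeks of age. These were the Control diet (TD.140711) or the Low AA diet (TD.140712), which supplies fewer amino acids and more carbohydrate. These changes of the diet cannot be told apart. After 4 months on the diets the mice were fasted overnight for about 16 hours, and poly(A) RNA of the liver was sequenced. There were 4 mice per diet, coded F129, F2212, F7111 and F2110 on the Control diet and H1126, H828, H817 and H1315 on the Low AA diet. Both diets were given to mice of the same strain, no genetic change is named for either group, and the mice were housed in groups, so that cage mates on 1 diet may not be fully independent. The values are scaled and rounded read counts per gene.

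MUPs are small lipocalins that are made in hepatocytes, released into the blood, filtered by the kidney and excreted in urine, where their barrel-shaped pocket slowly releases volatile pheromones. They are among the most abundant proteins that the male mouse liver secretes. Their transcription is stronger in males than in females, because it depends on androgens and on the pulsed release of growth hormone that acts through the receptor Ghr and the transcription factor Stat5b, and it also responds to glucocorticoids and thyroid hormone. Mup20 encodes darcin, a MUP that is itself a pheromone: it attracts females to the scent of a male. Mup1 has additionally been described as a circulating regulator of glucose metabolism. The central genes of the cluster arose by recent duplication, whereas Mup3, Mup20 and Mup21 belong to the older, more divergent genes at its edge.

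A stretch of 90 coding bases shows why the members were not treated alike. It covers coding bases 151 to 240, counted from the A of the start codon, the stretch in which Mup20 and Mup7 differ most, and capitals mark bases that differ from Mup7.
Mup7: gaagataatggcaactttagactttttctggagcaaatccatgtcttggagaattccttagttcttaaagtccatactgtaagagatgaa
Mup19: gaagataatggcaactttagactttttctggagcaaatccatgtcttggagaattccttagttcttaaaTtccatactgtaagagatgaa
Mup2: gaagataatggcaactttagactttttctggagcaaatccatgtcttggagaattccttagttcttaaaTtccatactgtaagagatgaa
Mup1: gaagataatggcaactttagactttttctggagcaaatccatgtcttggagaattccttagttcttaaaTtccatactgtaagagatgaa
Mup20: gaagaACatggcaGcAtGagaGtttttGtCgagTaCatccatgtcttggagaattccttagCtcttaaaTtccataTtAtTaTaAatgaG
Mup3: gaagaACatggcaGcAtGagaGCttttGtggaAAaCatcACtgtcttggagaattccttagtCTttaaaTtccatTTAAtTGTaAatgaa
Mup21: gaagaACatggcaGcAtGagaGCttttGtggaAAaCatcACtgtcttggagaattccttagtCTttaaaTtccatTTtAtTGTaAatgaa
Mup19, Mup2 and Mup1 each differed from Mup7 at 1 base of this stretch, whereas Mup20 differed at 18, Mup21 at 23 and Mup3 at 24. Over the whole coding sequence the 7 central members (Mup1, Mup2, Mup7, Mup10, Mup11, Mup17 and Mup19) were between 98.35% and 99.45% identical in their 21 pairs. Mup20 was 90.11% to 91.39% identical to the central members, Mup21 83.7% to 84.8%, and Mup3 82.16% to 83.42%. Transcripts and coding sequences were read from GENCODE on GRCm38.

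These differences decide whether a read can be placed on 1 gene. The transcript of each member was cut into all windows of 100 bases, which is the read length of the study, and each window was looked up in the transcripts of the other coding Mup genes. Every window of Mup19 was also found in another Mup gene. The shares were 97.3% for Mup2, 87.2% for Mup1, 85.4% for Mup7, 85.4% for Mup10, 83.5% for Mup11 and 59.4% for Mup17. By contrast, only 4.5% of the windows of Mup21 and 2.9% of those of Mup3 were shared, in both cases between these 2 genes alone. Mup20 shared 0.0% of its windows with another coding Mup gene, although 38.8% occurred in Mup pseudogenes. The sources used here do not say how shared reads were divided. The values of the single central genes are therefore uncertain, and their sum was used beside them. The part of the pseudogene windows in the values of Mup20 was not tested.

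**Figure D1:**
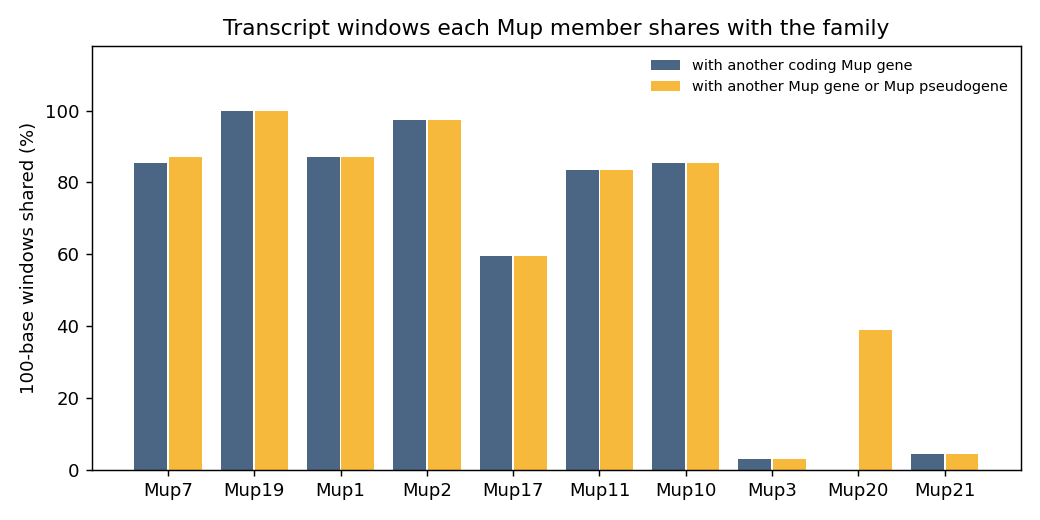
Share of 100-base transcript windows (percent, vertical axis) that each member has in common with another coding Mup gene (blue) or with any other Mup gene or pseudogene (yellow). The central members share 59.4% of their windows or more, while Mup3 (2.9%) and Mup21 (4.5%) share few and Mup20 shares windows with pseudogenes only.

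In the GENCODE annotation of GRCm38 the 10 members lie on the minus strand of chromosome 4. Mup7 (chr4:60066469-60070475) stands toward 1 end of the cluster, and Mup19 (chr4:61778324-61782269) is the central member nearest to the other end. Beyond it follow Mup20 (chr4:62050234-62054158), Mup3 (chr4:62083476-62087342) and Mup21 (chr4:62147932-62150863). The main transcript has 7 exons in all members other than Mup21, in which it has 6. Among the members the divergent genes Mup20, Mup3 and Mup21 are thus neighbours. Genes outside the members that share few windows lie elsewhere. Mup5 (chr4:61831319-61835233) stands between Mup19 and Mup20, and Mup6 (chr4:59964294-60007274) stands beyond Mup7 at the other end.

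Promoter sequence from RefSeq (GRCm38.p6) was matched for 8 of the 10 members, that is, for all but Mup1 and Mup20. The 250 bases before the annotated start are shown for Mup19 (chr4:61782225-61782474), as 1 central gene, and for Mup3 (chr4:62087318-62087567) and Mup21 (chr4:62150842-62151091), 5′ to 3′ on the minus strand, with a TATATAA motif in capitals.
Mup19: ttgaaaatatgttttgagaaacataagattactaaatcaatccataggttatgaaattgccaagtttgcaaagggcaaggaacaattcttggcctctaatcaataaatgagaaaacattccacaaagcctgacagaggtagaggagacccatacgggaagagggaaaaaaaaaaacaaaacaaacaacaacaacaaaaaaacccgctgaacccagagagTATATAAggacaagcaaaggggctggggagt
Mup3: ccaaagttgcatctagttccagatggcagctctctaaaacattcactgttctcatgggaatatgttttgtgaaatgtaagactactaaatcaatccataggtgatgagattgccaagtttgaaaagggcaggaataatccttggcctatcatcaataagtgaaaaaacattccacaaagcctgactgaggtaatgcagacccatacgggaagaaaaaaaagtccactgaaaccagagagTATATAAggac
Mup21: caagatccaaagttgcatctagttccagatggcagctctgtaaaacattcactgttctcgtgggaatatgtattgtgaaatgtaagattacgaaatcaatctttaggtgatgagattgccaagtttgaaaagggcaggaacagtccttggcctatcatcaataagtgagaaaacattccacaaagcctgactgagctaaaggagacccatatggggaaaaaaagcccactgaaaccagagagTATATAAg
TATATAA, searched on both strands, was found in 6 of the 8 windows (Mup2, Mup3, Mup10, Mup17, Mup19 and Mup21), against 3.04% of 32851 windows of all genes. The windows of Mup7 and Mup11 ended before the motif could be complete, judged by the letters around it in Mup19. Windows of duplicated genes are also not separate observations. TTCNNNGAA, the consensus bound by STAT factors, was found in 0 of the 8 and in 7.02% of all windows. TTGCGCAAT, a C/EBP consensus, and the palindromic response element of the glucocorticoid and androgen receptors were found in 0 of the 8 and in 0.05% and 0.01% of all windows. A motif absent from these letters can lie elsewhere.

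All 8 samples carried the defining markers of liver. The 4 hepatocyte markers (Alb, Apoa1, Ttr and Serpina1a) were all in the table and summed to between 2031300 and 2244646 per Low AA mouse and to between 1831301 and 2112951 per Control mouse. Scaled totals ran from 27876664 to 30799385 in Low AA and from 28361406 to 29485422 in Control mice. Control mouse F2212 stood apart by the pancreatic gene Cela1, which had 36587 there, 130 to 178 in F129, F7111 and F2110, and 190 to 288 on the Low AA diet. It was also apart in acute-phase genes, with Saa1 at 57733 (1068 to 2818 in F129, F7111 and F2110), Saa2 at 32724 (159 to 503) and Lcn2 at 1830.0 (138 to 275). Of the 6 acinar markers only this 1 is in the table. The macrophage (4 of 5 markers in the table), stellate (5 of 5), endothelial (4 of 4) and blood (2 of 4) marker sums overlapped between the diets. Within these lists the collagen gene Col1a1 was lower without overlap on the Low AA diet (37 to 69 against 70.0 to 147, limma adjusted p = 0.148), and the globin gene Hba-a1 overlapped (log2 fold change -0.72, limma adjusted p = 0.409). Their part in the Mup values was not tested, and 0 of 3 adipose markers are in the table. Across all genes 47 (0.399%) passed limma's test at an adjusted p under 0.05, 35 lower and 12 higher (0.102%) on the Low AA diet.

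Every member had a lower fitted mean on the Low AA diet, but the sizes were uneven and only Mup20, the darcin gene, passed the test. The log2 fold change, Low AA minus Control on the log2(value + 1) scale, was negative for 10 of 10 members, against 49.5% of all genes. It had a median of -0.69 over the members and of 0.0023 over all genes. Because the central members share most of their windows, counts over the members do not rest on 10 separate observations. At an adjusted p under 0.05 (limma, Benjamini-Hochberg over all 11784 genes) 1 of 10 members fell, against a background of 0.297% of genes called lower, and 0 rose, against 0.102% called higher. The diets did not overlap for 3 of 10 members (Mup3, Mup20 and Mup21), all lower on the Low AA diet, against 3.55% of genes lower and 3.26% higher without overlap. At an unadjusted p under 0.05 there were 4 of 10, against 6.7%. In bulk liver, fewer cells of a type and less RNA per cell cannot be told apart.

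**Figure D2:**
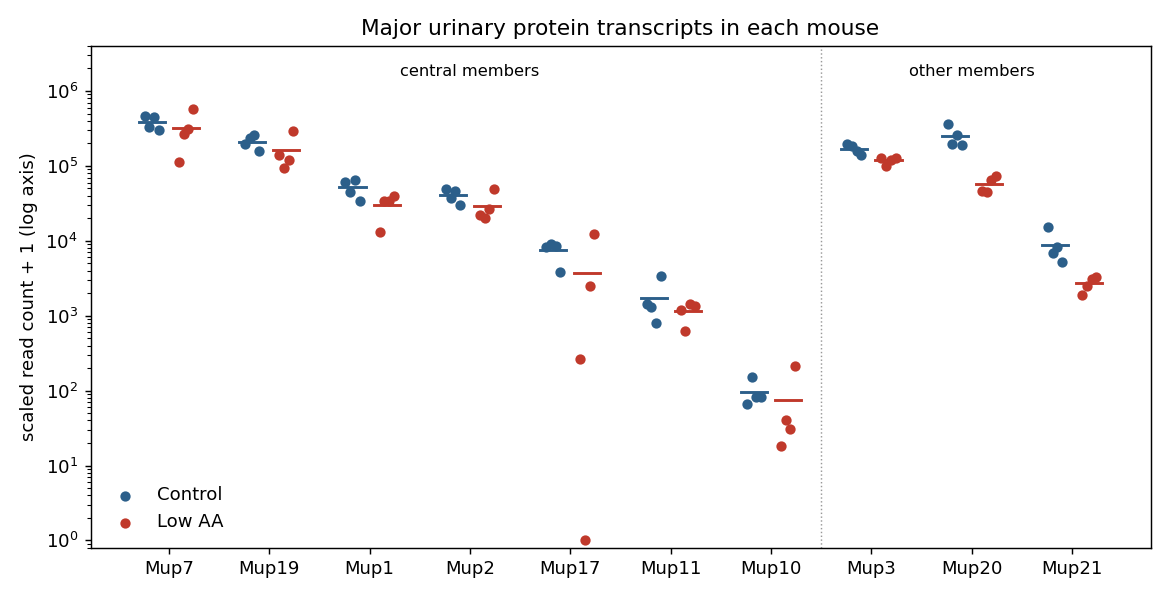
Scaled read count + 1 of each member in every mouse (log axis, each point 1 mouse), Control in blue and Low AA in red, with a line at the mean of each diet (n = 4). Points of the diets overlap for each of the 7 central members and are apart for Mup3, Mup20 and Mup21, with the widest gap for Mup20.

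Mup20 had the widest gap between the diets. In Control mice its value was 365668 in F129, 194350 in F2212, 259062 in F7111 and 193050.0 in F2110. In Low AA mice it was 46861 in H1126, 45139 in H828, 64055 in H817 and 72464 in H1315. The highest Low AA mouse lay far below the lowest Control mouse, and the diets did not overlap. The mean was 253032.5 ± 81168 (SD, n = 4) in Control and 57129.8 ± 13321 (SD, n = 4) in Low AA mice, a ratio of 4.43. On the log2 scale the difference was -2.12 (SE 0.23, limma adjusted p = 0.00355). Mup20 fell in each of the 8 fits that left out 1 mouse, with log2 fold changes between -2.25 and -1.93 and limma adjusted p between 0.00469 and 0.0213. Without F2212, the mouse with high Cela1, the log2 fold change was -2.23.

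Mup21, whose coding sequence is 94.77% identical to that of Mup3, followed with the next largest change among the divergent members. Its Control values were 15461 in F129, 6772 in F2212, 8291 in F7111 and 5138 in F2110. Its Low AA values were 1903 in H1126, 2512 in H828, 3130.0 in H817 and 3277 in H1315. The diets did not overlap, although F129 alone stood well above the other Control mice. The mean was 8915.5 ± 4550 (SD, n = 4) in Control and 2705.5 ± 629 (SD, n = 4) in Low AA mice, a ratio of 3.30. Its log2 fold change of -1.63 (SE 0.30) did not pass, at a limma adjusted p of 0.0593. It passed without Control mouse F2110 (limma adjusted p = 0.0374) and when all mice were scaled to equal totals (limma adjusted p = 0.0493), and not in the other settings tried at 0.05.

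Mup3, an abundant divergent member, differed less but with little scatter. Control mice had 198767 in F129, 182077 in F2212, 160062 in F7111 and 141983 in F2110. Low AA mice had 128540.0 in H1126, 100833 in H828, 120262 in H817 and 126274 in H1315. All Low AA mice lay below all Control mice, and the coefficient of variation was 10.6% in Low AA and 14.6% in Control mice. Its log2 fold change was -0.52 (SE 0.14), with an unadjusted p of 0.00488 and an adjusted p of 0.176 in limma, so that Mup3 did not pass across all genes.

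The central members overlapped between the diets in every case, and 0 of 7 passed limma's test, with 1 of 7 (Mup1) at an unadjusted p under 0.05. Their median log2 fold change was -0.54. Mup7, the most highly expressed central member, had 457056, 328540.0, 445058 and 297171 in Control mice F129, F2212, F7111 and F2110. In Low AA mice H1126, H828, H817 and H1315 it had 112689, 266152, 315474 and 572574, so the Low AA mice included both the lowest and the highest value. Its coefficient of variation was 60.4% in Low AA and 21.2% in Control mice, and its log2 fold change was -0.47 (SE 0.41, limma adjusted p = 0.732). It was -0.83 without H1315 and -0.046 without H1126. Mup19 showed the same pattern. It ranged from 94910.0 to 292506 in Low AA and from 156328 to 261672 in Control mice, with H1315 highest of all 8 (log2 fold change -0.50, SE 0.31, limma adjusted p = 0.595). Without H1315 its value was -0.84, and without H828 it was -0.29.

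Mup1, the member described as a metabolic signal, had 61710.0 in F129, 45118 in F2212, 65860.0 in F7111 and 34385 in F2110. In Low AA mice it had 13239 in H1126, 34111 in H828, 34212 in H817 and 40250.0 in H1315. Only H1315 reached into the Control range, and H1126 was far below the other Low AA mice. Mup1 had a log2 fold change of -0.84 (SE 0.34, limma adjusted p = 0.362), and of -0.47 without H1126. Mup2 ranged from 19917 to 48726 in Low AA and from 30195 to 48738 in Control mice, at a log2 fold change of -0.54 (SE 0.27, limma adjusted p = 0.473). For Mup2 too, the single Low AA mouse within the Control range was H1315, without which its log2 fold change was -0.82.

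Among the central members with lower values than those above, Mup17 was the most variable in Low AA mice. Its coefficient of variation was 153% there and 32.3% in Control mice. It was listed at 0 in H828 and had 267 in H1126, 2507 in H817 and 12159 in H1315, while Control mice had 8277 in F129, 9043 in F2212, 8527 in F7111 and 3857 in F2110. No fold change is given for it. It shares 59.4% of its windows with other Mup genes, and the part of read division in these values was not tested. Mup11 ranged from 618 to 1422 in Low AA and from 790.0 to 3387 in Control mice. Mup10 was the lowest member, from 17 to 211 in Low AA and from 66 to 151 in Control mice, again with H1315 at the top.

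**Figure D3:**
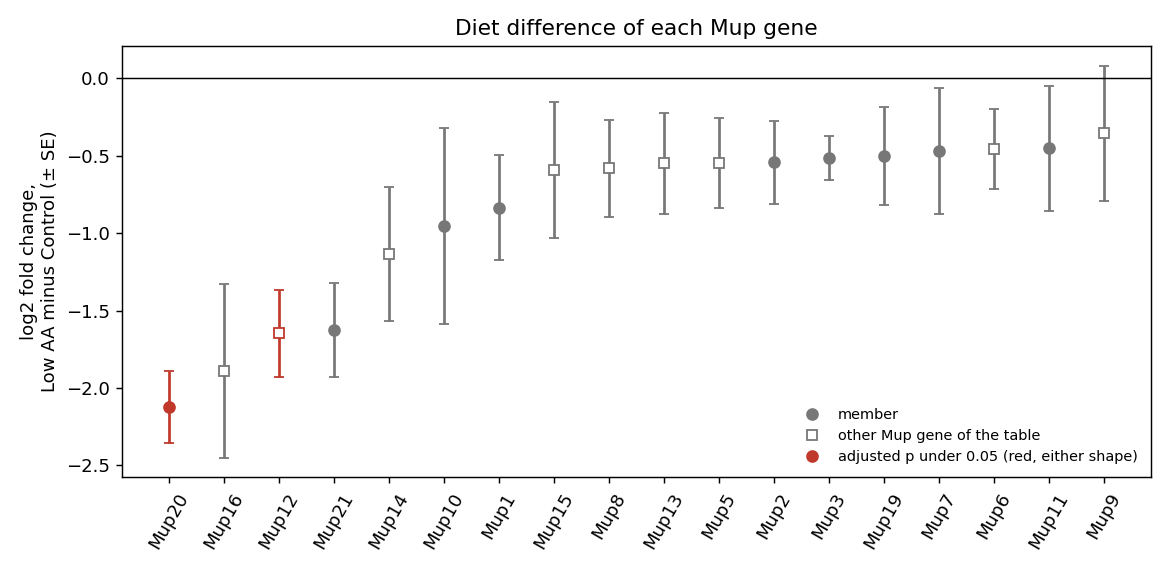
Log2 fold change (Low AA minus Control, log2(value + 1) scale, bars ± SE) of 9 members (circles) and the 9 other Mup genes of the table (squares), red where limma's adjusted p was under 0.05. Mup17, with a value of 0 in H828, is left out, all points lie below 0, and Mup20 and Mup12 are the red points.

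Levels can be compared between genes only per length of transcript, here as the scaled read count per kilobase. For the central members the order also depends on how shared reads were divided, which is not known. Among the 10 members, Mup7 had the highest mean level per kilobase in Control mice, 412035 ± 87336 (SD, n = 4). It was followed by Mup20 with 272664, Mup19 with 228511 and Mup3 with 173498. The next levels per kilobase were 55845 for Mup1, 43937 for Mup2, 13169 for Mup21, 8011 for Mup17, 1865 for Mup11 and 102 for Mup10. In Low AA mice Mup7 was again highest, with 341664 ± 206234 per kilobase (SD, n = 4). Mup19 followed with 174424 and Mup3 with 120912 per kilobase, and Mup20 came after them with 61562. Neighbours in this order that differed by less than the larger of their SDs were Mup20 and Mup19, Mup1 and Mup2, and Mup21 and Mup17 in Control mice. On the Low AA diet they were Mup7 and Mup19, Mup19 and Mup3, Mup1 and Mup2, and Mup17 and Mup21.

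Summing the members gives a value that does not depend on how reads were split among them. It still depends on how reads were split with Mup genes outside the members, and so does the central sum. The members held between 73.2% (H1315) and 85.4% (H1126) of the scaled reads of all rows with a Mup symbol. These rows leave out Gm2083, an older name of Mup13 with a row of its own. Its mean of 539494.75 in Control mice was above that of Mup7, 381956.25. With Gm2083 counted, the family sum in H1126 rose from 547546 to 945831, so the share held by the members was lower than given here. The 10 members together had 1353042 in F129, 1038029 in F2212, 1256191 in F7111 and 865574 in F2110. On the Low AA diet they had 467371 in H1126, 564231 in H828, 686355 in H817 and 1169808 in H1315. The sums of the other 3 Low AA mice lay below every Control mouse, while H1315 lay within the Control range. The mean sum in Low AA mice was 0.64 of the Control mean, and the log2 fold change of the sum was -0.71. It was -0.97 without H1315. As a share of all scaled reads, the members took 3.87% ± 0.693 (SD, n = 4) in Control and 2.46% ± 0.941 (SD, n = 4) in Low AA mice.

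The overlap lay in the central members. Their sum was 773146, 654830.0, 828776 and 525403 in Control mice F129, F2212, F7111 and F2110. It was 290067, 415747, 498908 and 967793 in Low AA mice H1126, H828, H817 and H1315. The value in H1315 exceeded that of every Control mouse and was 2.41 times the mean of the other Low AA mice. For Mup3 the corresponding ratio was only 1.08, for Mup21 1.30 and for Mup20 1.39, against 2.47 for Mup7 and 2.48 for Mup19. H1315 was the highest Low AA mouse for 8 of 10 members. For the central sum it came to a log2 fold change of -0.48, with -0.81 when H1315 was left out and -0.23 when H1126 was left out.

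**Figure D4:**
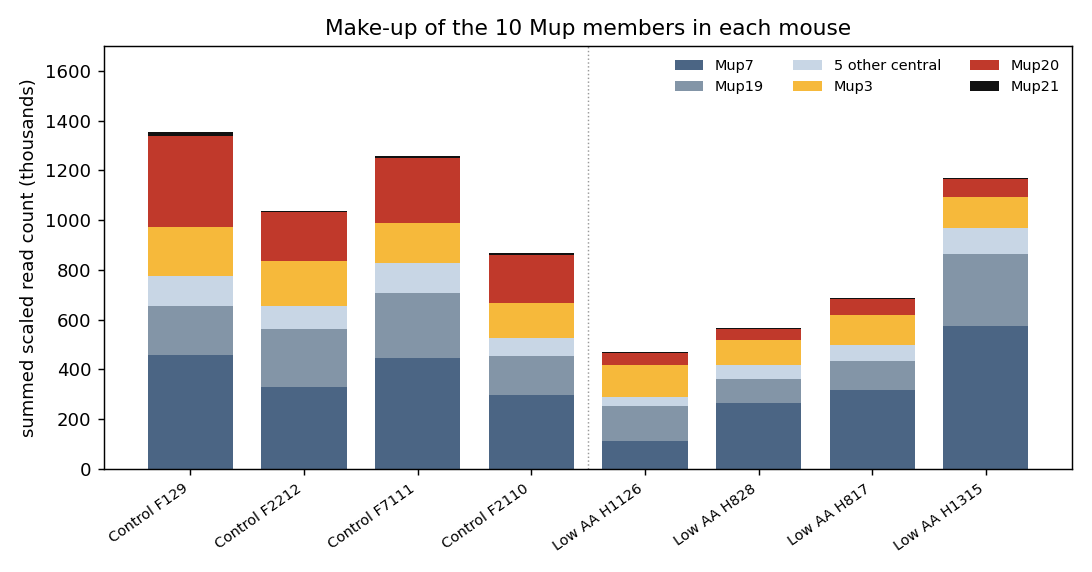
Summed scaled read count of the 10 members in each mouse (vertical axis from 0, in units of 1000 reads), stacked by gene, with Control mice on the left and Low AA mice on the right. The red Mup20 segment is thinner in every Low AA mouse, and H1315 reaches a total of 1169808 through the central genes Mup7 and Mup19.

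The make-up of the family differed between diets also in the mouse whose total lay in the Control range. Mup20 provided 27.0%, 18.7%, 20.6% and 22.3% of the summed members in Control mice F129, F2212, F7111 and F2110. It provided 10.03%, 8.00%, 9.33% and 6.19% in Low AA mice H1126, H828, H817 and H1315. The diets did not overlap, with 22.2% ± 3.55 (SD, n = 4) in Control and 8.39% ± 1.69 (SD, n = 4) in Low AA mice. H1315, which had the highest sum of the Low AA mice, had the lowest share of Mup20. The share of Mup21 also did not overlap (0.762% ± 0.255 in Control and 0.397% ± 0.0808 in Low AA mice, SD, n = 4), whereas that of Mup3 did (15.3% ± 2.09 and 18.4% ± 6.87, SD, n = 4).

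Ratios within a mouse do not depend on the scaling between mice. The log2 ratio of Mup20 to the summed central members was -1.49 ± 0.302 (SD, n = 4) in Control and -3.13 ± 0.467 (SD, n = 4) in Low AA mice, with no overlap and a difference of -1.64. For Mup21 to the central sum the difference was -1.15, again without overlap. For Mup3 to the central sum it was only -0.036, and the diets overlapped. Relative to Mup3, both Mup20 (-1.61) and Mup21 (-1.11) differed without overlap, whereas the log2 ratio of Mup20 to Mup21 (-0.50) overlapped. These differences between members are descriptions, and no test was run on them.

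**Figure D5:**
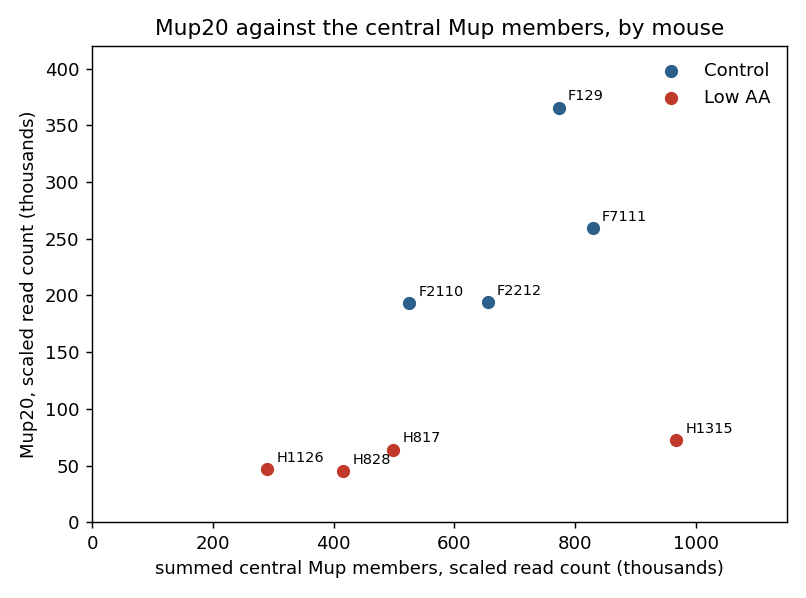
Mup20 (scaled read count, vertical axis) against the summed central members (scaled read count, horizontal axis), both in units of 1000 reads, each point 1 mouse, Control in blue and Low AA in red. Along the vertical axis the diets are apart, 193050.0 or more in Control and 72464 or less in Low AA mice, whereas along the horizontal axis they overlap, with H1315 farthest to the right.

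The other Mup genes of the table lay on the same side. All 9 (Mup5, Mup6, Mup8, Mup9, Mup12, Mup13, Mup14, Mup15 and Mup16) had a negative log2 fold change, and Mup12 fell. Apart from Mup5 (1.3%) and Mup6 (0.0%), these genes share most of their windows with other Mup genes and are not separate observations. Mup12 had 9018, 7009, 14008 and 7606 in Control mice F129, F2212, F7111 and F2110. It had 1877, 2407, 3628 and 4257 in Low AA mice H1126, H828, H817 and H1315, without overlap (log2 fold change -1.65, SE 0.28, limma adjusted p = 0.0395). The call on Mup12 held only without H1315 or F2212 among the 8 fits that left out 1 mouse, with limma adjusted p of up to 0.112. It was also lost among the 8000 genes with the highest mean (limma adjusted p = 0.0573), without the mean-variance trend (limma adjusted p = 0.0700) and with robust moderation (limma adjusted p = 0.0517), and 77.5% of its windows occur in other Mup genes. Mup16, at -1.89 (limma adjusted p = 0.199), and Mup14, at -1.13 (limma adjusted p = 0.332), did not pass. Over all 19 Mup genes 2 fell, against 0.297% of all genes, and the diets did not overlap for 4, all lower, against 3.55%. Mup4, Mup18 and Mup22, also coding Mup genes of the annotation, had no row under these symbols.

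Gene names are a further limit in this family. The symbols of 7 of the 10 members have also been used as an older name of another Mup gene, according to the NCBI gene table, so a central symbol need not denote the same locus in every annotation. Gm2083, an older name of Mup13, has a row of its own beside Mup13 and it ranged from 356960.0 to 700373 in Low AA and from 428773 to 602194 in Control mice, with a difference of -0.21 on the log2 scale (limma adjusted p = 0.788). H1315 was highest here as well. With Gm2083 and all Mup rows included, the log2 fold change of the summed family was -0.57.

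Of the hormone receptors, signal transducers and transcription factors known to act on Mup transcription, 21 of 22 were in the table and 0 passed limma's test. Their median log2 fold change was 0.08, and 3 had an unadjusted p under 0.05, all higher on the Low AA diet (5.13% of all genes). Socs2, a growth hormone target that restrains the pathway, had the highest log2 fold change (1.18, limma adjusted p = 0.323), followed by the prolactin receptor Prlr (0.73, limma adjusted p = 0.170), and the third was Stat5a. The lowest were Socs3, an inhibitor of cytokine signalling (-0.48, limma adjusted p = 0.668), and the hepatocyte factor Cebpa (-0.35, limma adjusted p = 0.521). The growth hormone receptor Ghr had -0.28 (limma adjusted p = 0.457), and Stat5b 0.24 (limma adjusted p = 0.496). Transcript levels do not show the activity of these factors.

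Genes outside the family that the male liver expresses more strongly than the female liver were lower more often than not. Of 20 in the table (22 listed) 6 fell, against 0.297% of all genes, and 9 were lower without overlap, against 3.55%. This list, like the members and the other gene lists, was chosen with earlier results of these data known. The share of all genes is therefore not an independent yardstick for it. A negative log2 fold change was found for 16 of the 20, against 49.5% of all genes, and the median was -0.92. The 4 others, Elovl3 (0.23), Egfr (0.17), Slco1a1 (0.017) and Hsd3b5 (0.014), were positive and did not pass limma's test. Moxd1 (-5.74, limma adjusted p = 0.0869) and Ugt2b38 (-2.81, limma adjusted p = 0.185) had the most negative values but overlapped between diets and did not pass. Moxd1 had from 0 to 35 in Low AA and from 27 to 1301 in Control mice, so the size of its value depends on the pseudocount. Among the 6 genes that passed, the largest fall was that of Cyp4a12a, a fatty acid hydroxylase of male liver (-2.02, SE 0.19, limma adjusted p = 0.00198), with Cyp4a12b alongside (-1.80, limma adjusted p = 0.00201). The complement components C9 (-1.90, limma adjusted p = 0.0158) and C6 (-1.08, limma adjusted p = 0.0414), the protease inhibitor Serpine2 (-1.76, limma adjusted p = 0.0368) and the glutathione transferase Gstp1 (-1.29, limma adjusted p = 0.0158) fell too. Between 3 and 9 of the list fell when 1 mouse was left out, and the count was 3 without H828 and without H817.

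Of genes with higher expression in female liver, 12 of 27 were in the table, 11 of them with a positive log2 fold change and a median of 0.55. Of the 12, 4 were higher without overlap, against 3.26% of all genes. None of those 11 passed limma's test, though 8 had an unadjusted p under 0.05, against 5.13% of all genes that were higher at this p. The 1 gene that passed, the neurotrophin receptor Ntrk2, went the other way (-2.11, limma adjusted p = 0.0414). No gene of the list passed without H1126, H828, H817, H1315, F129 or F7111, and 2 passed without F2110. Prlr is on this list and on the list of factors above. Cyp2b9, a cytochrome P450 of female liver, had 5.70 (limma adjusted p = 0.161), and Acot3, a peroxisomal thioesterase, had 1.97 (limma adjusted p = 0.0841). Both genes overlapped between the diets. Cyp2b9 ranged from 0 to 94 in Control and from 23 to 2940 in Low AA mice, so the size of its value depends on the pseudocount.

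MUPs were also set beside other secreted proteins. Among other lipocalins 8 of 13 were in the table and 0 passed limma's test, with 1 (Orm1) at an unadjusted p under 0.05. Orm1, an acute-phase carrier of lipophilic ligands, reached -2.06 on the log2 scale without overlap (limma adjusted p = 0.0908), and Orm3 had -1.58 (limma adjusted p = 0.463). Orm1 was highest in F2212 (16131), the mouse with high Saa1 and Lcn2, and its value was -1.88 without that mouse (limma adjusted p = 0.129). Without H1315 it passed (-2.44, limma adjusted p = 0.0415). Ambp (0.0045) and Apom (0.09), which are also lipocalins made by hepatocytes, were close to 0. Of 24 abundant secreted hepatocyte proteins 1 fell, the protease inhibitor Serpina1e (-1.54, SE 0.23, limma adjusted p = 0.0212), and the median of the list was -0.06. The call on Serpina1e was lost without H1126, without H817, without F129 and without F7111.

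Gluconeogenesis, which Mup1 has been reported to restrain, was represented by 8 of 8 genes. None passed limma's test, and 1 (G6pc) had an unadjusted p under 0.05. G6pc, the final enzyme of glucose release, had the highest value on the log2 scale, 0.71 (limma adjusted p = 0.282), before Ppargc1a, a coactivator of the pathway, with 0.51 (limma adjusted p = 0.751). The lowest were Gpt, an alanine aminotransferase (-0.30, limma adjusted p = 0.538), and Pck1 (-0.13, limma adjusted p = 0.797). The median was 0.20.

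The genes outside the family that were most like Mup20 over the 8 mice differed from those most like the central sum. By Pearson's r of log2(value + 1), taken over all genes, Mup20 was most like Cib3 (0.978), Baat1 (0.977), Ces2c (0.974), Cyp4a12a (0.974) and Cml5 (0.970). Of these Cib3, Ces2c, Cyp4a12a and Cml5 were themselves among the genes that fell, and r within diets was lower for them, at 0.734, 0.885, 0.675 and 0.708. The central sum was most like Gdi2 (0.958), Gm16548 (0.953), Cenpq (0.940), Setd3 (0.929) and Acy1 (0.915), 0 of which passed limma's test. These are the highest values of a search over all genes in 8 mice, and they are descriptions. Among the 10 members, Mup20 was closest to Mup21 (r 0.965, within diets 0.920) and less close to the central sum (r 0.617, within diets 0.705).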

How the data were processed

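Stranded poly(A) libraries of liver (Control n = 4, Low AA n = 4) had been sequenced. The signal that the authors deposited per gene and mouse is, from the values, a scaled and rounded read count, and the factor is not stated. Their own fold change, a signed score, and FDR, a q-value, stand beside it in the deposited table and were not used. The submitters' processing notes name bcl2fastq 1.8.2, STAR 2.5.0a, RSEM 1.2.6, edgeR 3.10.5, R 3.2.1 and mm10, without their settings. Since the values are not raw counts, count models were not run. On log2(value + 1), limma 3.58.1 (R 4.3.3) was fitted with its trend option to 11784 genes, with Benjamini-Hochberg adjusted p under 0.05 as the threshold. The script was first tested on simulated data, whose noise did not reach that of the most variable genes. Exact sequencing depth is unknown, and fold changes on this scale understate those of low genes. Every mouse is 1 replicate. The p-values set the diet difference against the spread between mice within a diet, moderated over all genes, and they treat the mice as independent.

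The members and gene lists were chosen with earlier results of these data known. Named genes were all members, called genes of each list or, where few, the 2 highest and lowest, and the 5 most like Mup20 and the central sum. Ghr, Stat5a, Stat5b, Ambp, Apom, Moxd1, Ugt2b38, Elovl3, Egfr, Slco1a1, Hsd3b5, Saa1, Saa2 and Lcn2 were named after their values were seen. Sequences were compared with Biopython 1.88 in Python 3.11.15. Alternatives were 0.1 or 5 in place of 1 as pseudocount, a filter to the 8000 genes of highest mean, equal totals over all genes and over those outside the members, no trend, robust moderation, an adjusted p under 0.1 and leaving out each mouse. Sums over all 19 Mup rows, with and without Gm2083, and leave-one-out fits of the central sum and Orm1 and all settings of Mup12, were added after the data were seen.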

Additional observations from a re-analysis of the deposited data

Results flagged for a closer look

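In Low AA mice Mup1 had 1 mouse far from the others. The gap between H1126 (13239) and the next lowest Low AA mouse, H828 (34111), was 0.851 of the range of the group on the log2(value + 1) scale, above Dixon's critical value of 0.829 for 4 mice. In Control mice Mup17 had F2110 (3857) apart from F129, F2212 and F7111 (8277 to 9043), with a gap of 0.896 of the range. Both are central members, whose reads are shared with other genes. Of 30 groups of 4 mice examined 2 stood out, and chance gives about 1 in 20.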

How the results depend on the processing

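Mup20 fell in every alternative run, and the log2 fold changes of the 10 members and of their sum were negative in each setting that gave a value. Mup10 was not tested among the 8000 genes with the highest mean. The number of members called was 2 (Mup20 and Mup21) with equal totals and at an adjusted p under 0.1, and 1 to 2 with 1 mouse left out. The number of genes called, 47, was 19 among the 8000 genes with the highest mean, 30 without the mean-variance trend and 132 at an adjusted p under 0.1. It ran from 16 (without H817) to 77 (without F2212) with 1 mouse left out. Female-biased genes called numbered 0 among the 8000 genes, 3 at an adjusted p under 0.1 and 0 to 2 with 1 mouse left out. Other lipocalins called numbered 1 at an adjusted p under 0.1 and 0 to 1 with 1 mouse left out, male-biased genes 3 to 9, and abundant secreted proteins 0 to 1. The cause of these changes was not tested.

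The log2 fold change of the summed members ran from -0.97 (without H1315) to -0.53 (without H1126), and the difference in their share of all scaled reads from -1.86 to -1.14 percentage points. No paired analysis was possible because mouse codes are not shared between diets and the replicate numbers are only in accession order. The comparison of count models was not run, since the values are not raw counts. Rows of near-identical genes cannot be separated further with these values.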
